A study of Mus musculus with 17 samples.

Results

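Slc1a2, Slc1a3, Gfap, Aqp4, Gpm6b, S100b, Aldoc, Mlc1 and Vsnl1 are 9 genes known for their use in astroglia and, for several, in neurons or in the glia of the posterior pituitary lobe. They were taken by symbol from the 23284 genes counted, as a list drawn up with the genotype difference in these data already known. Their levels and differences between genotypes are therefore a description. No p-values are printed for them, and calls at a p threshold are given as description, not as support.

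Astroglia are the support cells of nervous tissue. They clear glutamate from the space around synapses, hold water and ion balance at vessels and surfaces, and carry intermediate filaments that set them apart from neurons. The posterior lobe of the pituitary is nervous tissue that lies against the hormone-producing lobes, and its resident glia, the pituicytes, surround axon endings that release vasopressin and oxytocin.

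The samples were 17 mouse tumours, labelled neuroendocrine and pituitary, whose RNA was sequenced. Of these, 8 carried engineered alleles of Rb1, Trp53 and Crebbp (libraries T1 to T8) and the other 9 carried those of Rb1 and Trp53 alone (T1 to T9), so the Rb1 and Trp53 alleles were common to both groups. Rb1 and Trp53 are tumour suppressor genes, and Crebbp encodes a histone acetyltransferase. The comparison addresses what expression Crebbp controls in such tumours. The labels do not give the alleles' design, what drove recombination, the age of the mice or whether each tumour came from its own mouse. P-values thus cover the spread between samples alone, which may be technical.

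The total count on genes was 8328297 to 28140755 per library, with a median of 13456360. Values are counts per 1000000 gene counts (CPM) in each library. Crebbp RNA was 41.0 to 109 CPM in Rb1/Trp53/Crebbp libraries and 34.7 to 114 CPM in Rb1/Trp53 libraries. Those ranges overlap, and since a count over the whole gene need not change when part of it is deleted, it does not check the labels. In 10 libraries, 4 Rb1/Trp53/Crebbp (T5 to T8) and 6 Rb1/Trp53 (T2 and T5 to T9), Pomc had more counts than Calca. Pomc encodes the ACTH and melanotropin precursor of pituitary cells. In the other 7, 4 Rb1/Trp53/Crebbp (T1 to T4) and 3 Rb1/Trp53 (T1, T3 and T4), Calca, the calcitonin gene, had more. The 7 Calca-high libraries went against the tissue label by their markers, since Tbx19 and Pax7, transcription factors of Pomc cells, stood at or below 0.36 CPM there, against 275 CPM or more for Tbx19 and 141 CPM or more for Pax7 in the Pomc-high libraries. Both sets come from the counts alone, and the study did not define them. Beside these sets, Rb1/Trp53/Crebbp T8 stood apart from the other Pomc-high libraries, with 105978 CPM of Pomc against 182401 to 278129 CPM. The main fits below that include it are given with and without it.

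Slc1a2 encodes the main glutamate transporter of forebrain astrocytes. In the Pomc-high set it had 3.23, 2.45, 3.42 and 245 CPM in Rb1/Trp53/Crebbp T5, T6, T7 and T8, against 0.818 to 4.12 CPM with a median of 2.57 in the 6 Rb1/Trp53 libraries. One library, Rb1/Trp53/Crebbp T8, was far above all others, at 2680 reads, and the remaining 3 lay inside the Rb1/Trp53 range. Calca-high values of Slc1a2 were 4.44, 25.1, 5.61 and 9.10 CPM in Rb1/Trp53/Crebbp T1 to T4, against 2.66, 4.16 and 1.92 CPM in Rb1/Trp53 T1, T3 and T4. There the genotypes did not overlap, and Rb1/Trp53/Crebbp T2 was the highest.

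Slc1a3 encodes the second glial glutamate transporter, the main one of cerebellar Bergmann glia and of radial glia. It had 6.46, 5.65, 4.28 and 145 CPM in the Pomc-high Rb1/Trp53/Crebbp libraries, in the order T5 to T8, against 2.34 to 9.55 CPM with a median of 5.78 in Rb1/Trp53 ones. Again T8 alone stood outside the Rb1/Trp53 range. In the Calca-high set the values were 0.841, 1.72, 1.35 and 2.32 CPM in Rb1/Trp53/Crebbp libraries and 4.54, 2.84 and 1.42 CPM in Rb1/Trp53 libraries. The genotypes overlapped there, and the order was the opposite of that of Slc1a2, with the 2 highest values in Rb1/Trp53 libraries.

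Gfap encodes the intermediate filament that defines reactive astrocytes and is also found in pituicytes. Its Pomc-high values were 5.85, 0.817, 0.855 and 175 CPM in Rb1/Trp53/Crebbp T5 to T8, against 0.307 to 29.5 CPM with a median of 2.58 in Rb1/Trp53 libraries. The highest Rb1/Trp53 value was that of T7, so 1 library in each genotype stood above its group. Gfap was, in the Calca-high set, near 0 in both genotypes, at 0.36, 0.827, 0 and 0.0646 CPM in Rb1/Trp53/Crebbp libraries and 0.504, 0.355 and 0.246 CPM in Rb1/Trp53 libraries.

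S100b, a calcium-binding protein of astroglia and of folliculostellate cells, had 1.21, 0.223, 0.641 and 41.6 CPM in the Pomc-high Rb1/Trp53/Crebbp libraries. The Rb1/Trp53 libraries of that set had 0.201 to 3.78 CPM with a median of 0.382, and T7 was again the highest. S100b was lower with the Crebbp allele in the Calca-high set, at 1.56, 1.38, 1.65 and 3.87 CPM in Rb1/Trp53/Crebbp libraries against 20.8, 15.3 and 6.29 CPM in Rb1/Trp53 libraries, without overlap.

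Vsnl1 encodes visinin-like 1, a calcium sensor best known from neurons. In the Pomc-high set it had 0.807, 0.892, 0.534 and 80.2 CPM in Rb1/Trp53/Crebbp T5 to T8, against 0.207 to 0.915 CPM with a median of 0.319 in Rb1/Trp53 libraries. Outside T8 that is 12 reads or fewer per library, too few to order them. In the Calca-high set it had 2.04, 5.17, 1.95 and 3.55 CPM in Rb1/Trp53/Crebbp libraries and 0.138, 0.569 and 0.491 CPM in Rb1/Trp53 libraries. The genotypes did not overlap, and as for Slc1a2 the highest library was Rb1/Trp53/Crebbp T2 and the next T4.

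Aqp4, the water channel of astrocyte endfeet, had 1.31, 0.669, 0.107 and 23.0 CPM in the Pomc-high Rb1/Trp53/Crebbp libraries, against 0.301 to 2.75 CPM with a median of 0.776 in Rb1/Trp53 ones. Its Calca-high values were 0.961, 0.964, 0.674 and 0.646 CPM in Rb1/Trp53/Crebbp libraries and 2.43, 0.604 and 4.27 CPM in Rb1/Trp53 libraries, which overlapped. Mlc1, an astrocyte membrane protein that regulates cell volume together with Hepacam, had 2.12, 0.595, 0.534 and 60.2 CPM in the Pomc-high Rb1/Trp53/Crebbp libraries, against 0.344 to 3.43 CPM with a median of 1.64 in Rb1/Trp53 ones. Mlc1 had, in the Calca-high set, at most 1 read in any Rb1/Trp53/Crebbp library and 2 reads in each Rb1/Trp53 library, at or below 3 counts, so no fold is given.

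Gpm6b, a proteolipid of neuronal and glial membranes, had high values in T8 and in the Calca-high Rb1/Trp53/Crebbp libraries. Its Pomc-high values were 8.48, 6.54, 4.92 and 113 CPM in Rb1/Trp53/Crebbp T5 to T8, against 2.51 to 7.09 CPM with a median of 4.32 in Rb1/Trp53 libraries. Its Calca-high values were 39.6, 28.7, 69.0 and 22.1 CPM in Rb1/Trp53/Crebbp T1 to T4 and 3.39, 7.18 and 5.60 CPM in Rb1/Trp53 T1, T3 and T4. All 4 Rb1/Trp53/Crebbp values lay above the 3 others. The gene overlaps Ofd1 in the RefSeq annotation, and no source used here gives the strand setting of the counting, so reads of the overlap cannot be told apart. Ofd1 itself had 39.1 to 46.3 CPM in Calca-high Rb1/Trp53/Crebbp libraries against 30.4 to 36.2 CPM in Rb1/Trp53 ones.

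Aldoc, the aldolase of astrocytes and Purkinje cells, was above 60 CPM in every library. It had 181, 68.8, 118 and 458 CPM in the Pomc-high Rb1/Trp53/Crebbp libraries, against 83.1 to 119 CPM with a median of 99.1 in Rb1/Trp53 ones. The Calca-high values were 262, 331, 287 and 233 CPM in Rb1/Trp53/Crebbp libraries and 116, 117 and 310 CPM in Rb1/Trp53 libraries. The genotypes overlapped in both sets, through T6 and T7 in the Pomc-high set and Rb1/Trp53 T4 in the Calca-high set.

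**Figure D1:**
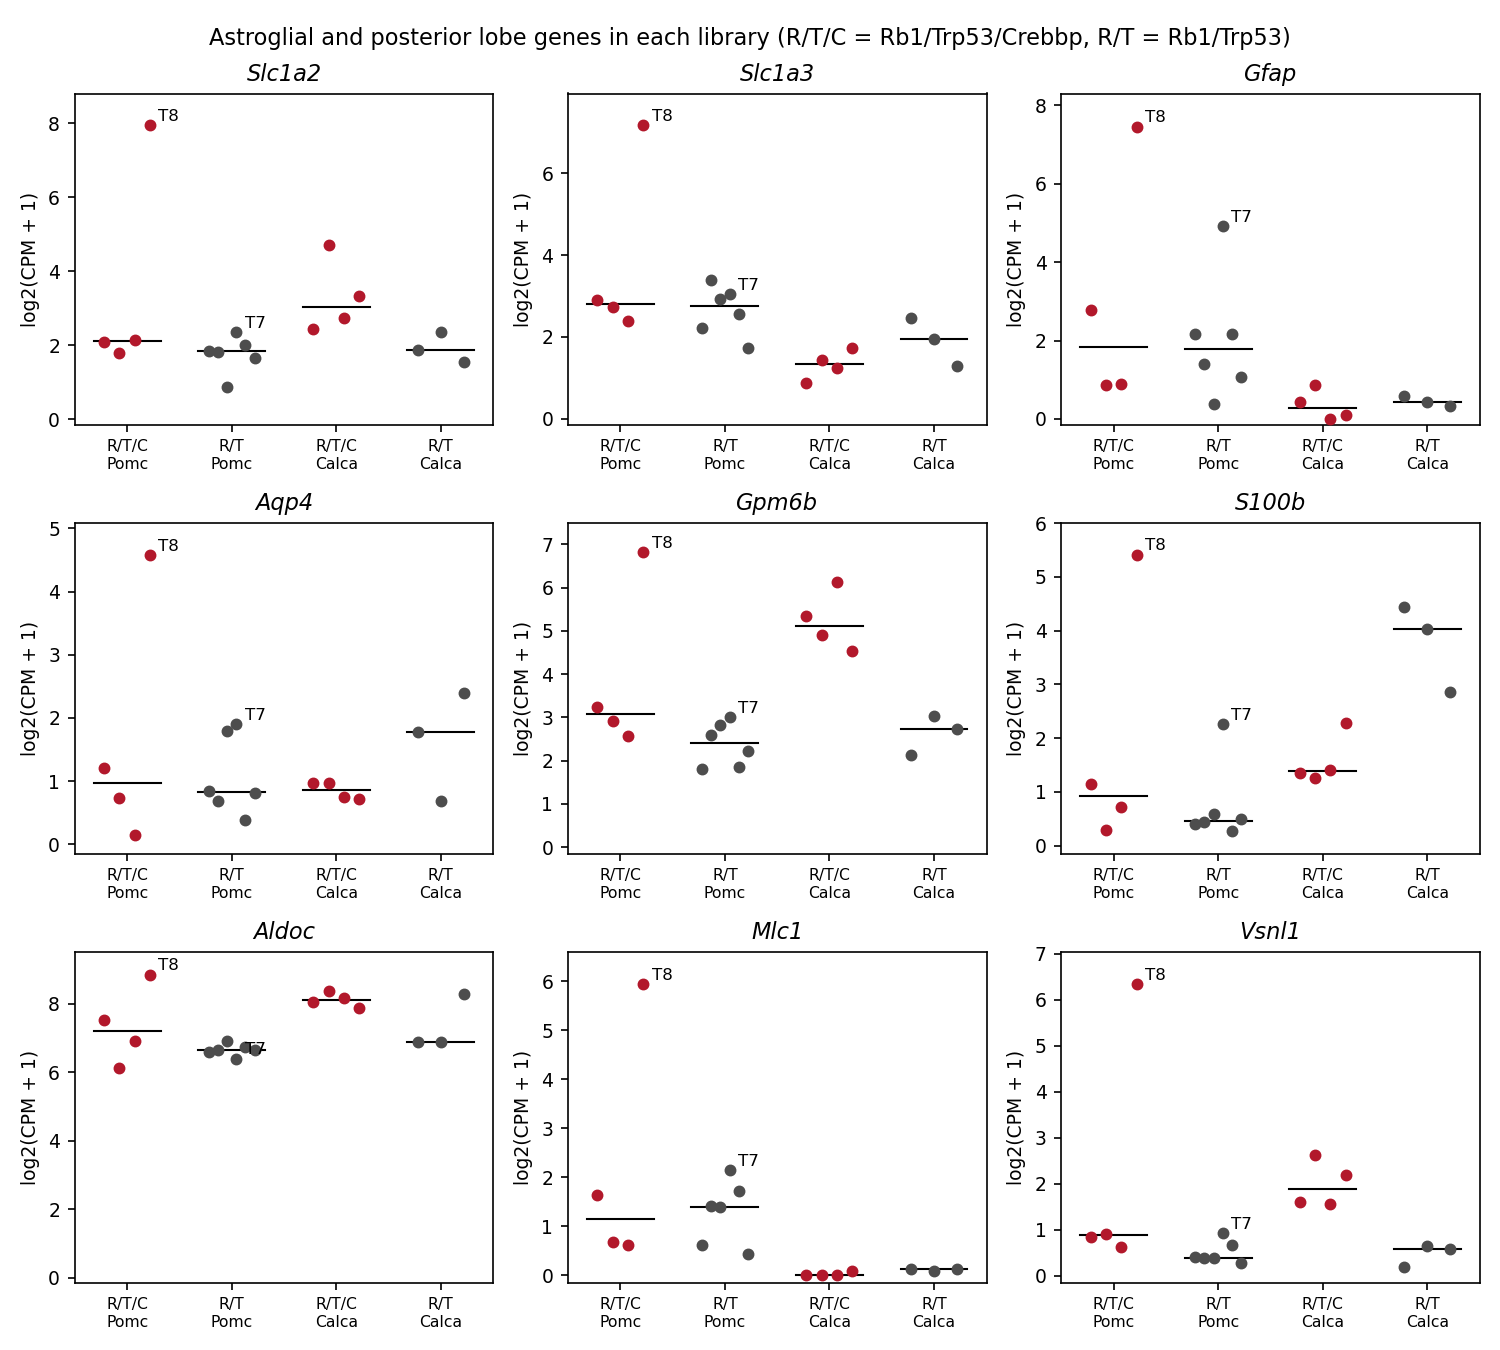
Level of each of the 9 genes in every library as log2(CPM + 1), with 1 point per library, bars at group medians, Rb1/Trp53/Crebbp in red (R/T/C) and Rb1/Trp53 in grey (R/T), by Pomc-high and Calca-high set. Rb1/Trp53/Crebbp T8 is the highest Pomc-high point in all 9 panels, for example 245 CPM for Slc1a2, and in the Calca-high set Slc1a2, Gpm6b and Vsnl1 separate the genotypes upward and S100b downward.

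One library carried much of the Pomc-high difference. Rb1/Trp53/Crebbp T8 was the highest of the 10 Pomc-high libraries for 9 of 9 genes, while it was highest for 37.4% of the genes tested in that set and for 33.5% of all genes with any count. It also reached at least 5 times the median of the other 9 libraries for 8 of 9, all but Aldoc, against 1.97% of tested genes and 6.41% of genes with any count. With TMM scaling, which adjusts for library composition, the shares were 17.2% and 1.48% of tested genes and the counts for the 9 genes stayed at 9 and 8. The ratio of T8 to the median of the other 9 was 4.61 for Aldoc, 22.5 for Gpm6b, 25.7 for Slc1a3, 30.4 for Aqp4 and 36.8 for Mlc1. It was 95.1 for Slc1a2, 101 for S100b, 106 for Gfap and 150 for Vsnl1. Since T8 is 1 library, its values have no replicate.

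As a share of the CPM summed over the 8 Rb1/Trp53/Crebbp libraries, T8 held 82.1% of Slc1a2, 86.5% of Slc1a3, 95.2% of Gfap and 94.8% of Mlc1. The shares were 81.2% for Aqp4, 79.8% for S100b and 84.3% for Vsnl1. They were lower for Gpm6b, at 38.6%, and for Aldoc, at 23.6%, whose Calca-high libraries also held much of the sum.

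A smaller and partial version of this pattern appeared in 1 library of the other genotype. With Rb1/Trp53/Crebbp T8 set aside, Rb1/Trp53 T7 was the highest of the 9 remaining Pomc-high libraries for 6 of 9 genes, against 4.89% of tested genes and 7.68% of genes with any count. The 6 included Gfap at 29.5 CPM and S100b at 3.78 CPM, and also Vsnl1, whose 8 reads do not set it apart from the 12 of Rb1/Trp53/Crebbp T6, but Aldoc, Gpm6b and Slc1a3 were higher elsewhere. Rb1/Trp53 T7 was thus below T8 for every one of the 9 genes.

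Many genes of brain tissue at large had the same high library. Of 30 further astrocyte genes, 26 were highest in T8 among the Pomc-high libraries, and 15 reached at least 5 times the median of the others. Over tested genes these shares were 37.4% and 1.97%, and over genes with any count 33.5% and 6.41%. Clu and Ttyh1 were lower in T8, each at 0.81 times the median of the other 9, and Nfia and Nfib were not highest there. Sparcl1 was at only 1.38 and Mt3 at 1.54 times that median. Kcnj10, the inward-rectifier potassium channel of astrocytes, had 69.1 CPM in T8 against at most 2.52 CPM in the other 9 libraries. Hepacam, the partner of Mlc1, had 27.9 CPM against at most 1.51 CPM, and Gjb6, the astrocyte connexin, 18.3 CPM against at most 0.572 CPM. The astrocyte list summed to 5539 CPM in T8, against 2322 to 2733 CPM in the other Pomc-high Rb1/Trp53/Crebbp libraries and 3038 to 3822 CPM in the Rb1/Trp53 ones.

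Oligodendrocyte genes were highest in T8 for 12 of 13, and at least 5 times the median for 10. The shares were 37.4% and 1.97% of tested genes, and 33.5% and 6.41% of genes with any count. Opalin, the exception, had 0 counts in all 17 libraries. Mobp, a myelin protein gene, had 79.5 CPM in T8 and at most 3.89 CPM in the other 9, where the maximum was in Rb1/Trp53 T7. The list summed to 901 CPM in T8, against 73.2 to 96.1 CPM in the other Rb1/Trp53/Crebbp and 78.5 to 133 CPM in the Rb1/Trp53 libraries of the set.

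Of 19 neuronal genes, 14 were highest in T8 and 11 at least 5 times the median. Of tested genes 37.4% and 1.97% were so, and of genes with any count 33.5% and 6.41%. Slc17a6, the vesicular glutamate transporter of subcortical neurons, had 49.6 CPM in T8 and at most 2.76 CPM elsewhere in the set. Gad1 and Slc32a1, genes of GABA neurons, had 57.2 and 29.0 CPM in T8, against at most 0.801 and 0.505 CPM. Avp, the vasopressin gene, had 15.1 CPM against at most 2.21 CPM. Other neuronal genes were not high there. Slc17a7, the cortical vesicular glutamate transporter, had 4.30 CPM against a median of 13.8 CPM in the other 9, and Rbfox3, a general neuron marker, 57.1 CPM against 69.2 CPM. Nefh and Grin1 were at 1.09 and 1.15 times that median. The neuronal list summed to 794 CPM in T8, against 357 to 410 CPM in the other Rb1/Trp53/Crebbp and 375 to 477 CPM in the Rb1/Trp53 libraries. The part of neurons and oligodendrocytes in the values of the 9 genes was not tested.

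Of 13 genes used for pituicytes and tanycytes, 6 were highest in T8 and 2 also reached 5 times the median, against 37.4% and 1.97% of tested genes. Col25a1, a membrane collagen gene, had 30.8 CPM in T8 against at most 8.20 CPM in the other 9 libraries. Tcf7l2, a transcription factor of the Wnt pathway, had 5.68 CPM against at most 2.45 CPM. Rax, a homeobox gene of tanycytes and pituicytes, had 1.01 CPM in T8, 5.08 times the median of the others, but up to 1.35 CPM in 1 of them. Lhx2 had 4.21 CPM against up to 4.35 CPM. The list summed to 357 CPM in T8, inside the 319 to 409 CPM of the Rb1/Trp53 libraries, but Six3, a homeobox gene, made up much of that sum, at 159 CPM in T8 against a median of 256 CPM in the other 9. The lists were not tested against each other.

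Relatives and partners of the 9 genes were highest in T8 for 13 of 21, with 9 at 5 times the median or more, against 37.4% and 1.97% of tested genes. Other lists were highest there for 5 of 11 Schwann cell, 3 of 8 stem and folliculostellate, 4 of 7 ependymal, 7 of 10 macrophage, 1 of 7 endothelial, 1 of 10 anterior lobe and 3 of 7 tumour cell genes. In that order 3, 1, 1, 2, 1, 1 and 0 reached 5 times the median, against 1.97% of tested genes and 6.41% of genes with any count. In bulk tumour RNA, more cells of a type and more RNA per cell cannot be told apart.

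**Figure D2:**
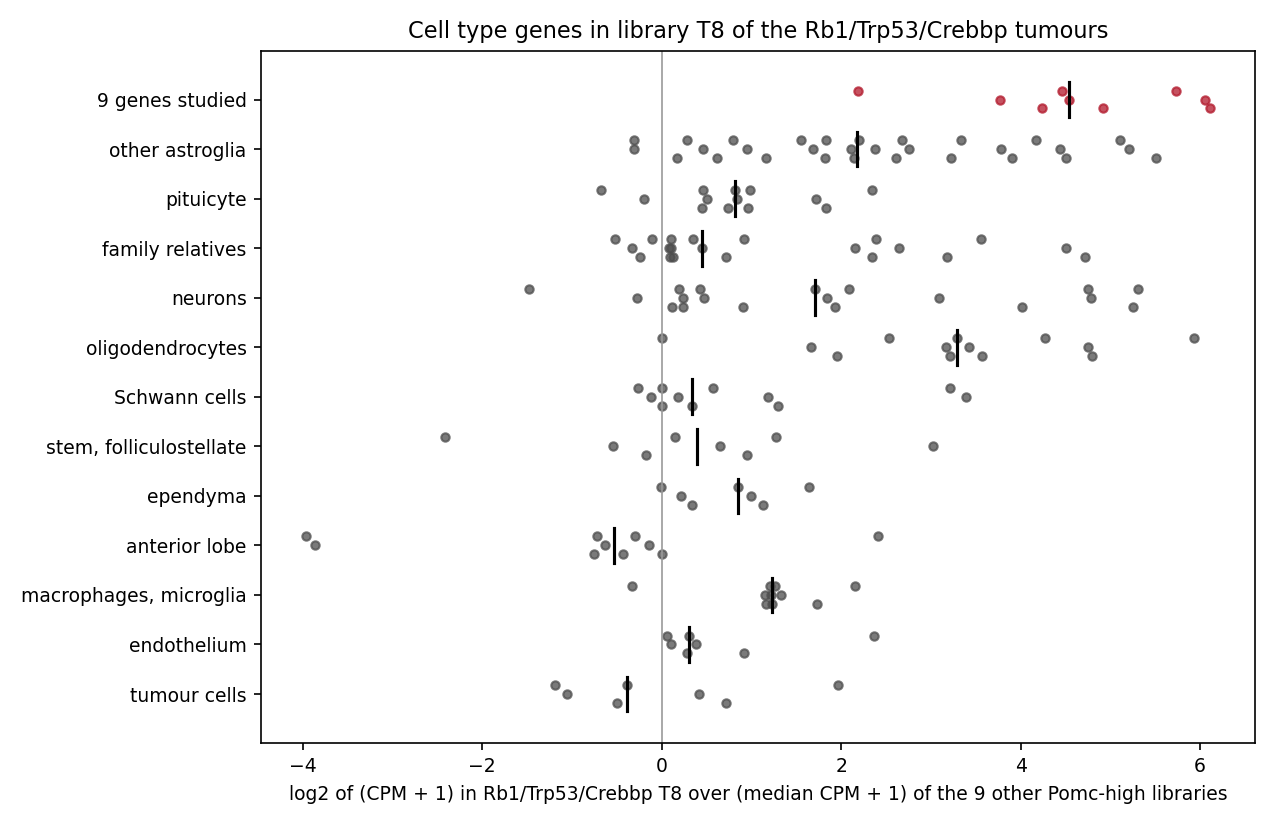
Each point is 1 gene, placed at log2 of its (CPM + 1) in Rb1/Trp53/Crebbp T8 over the median (CPM + 1) of the 9 other Pomc-high libraries, by gene list, with bars at list medians. The 9 genes studied lie between 2.19 and 6.11, and many oligodendrocyte, neuronal and other astrocyte genes lie as far to the right, for example Mobp at 5.93 and Slc17a6 at 5.31.

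Over all 17 libraries, 8 of the 9 genes passed the low-count filter and 3 were called higher in Rb1/Trp53/Crebbp (edgeR quasi-likelihood test, Benjamini-Hochberg adjusted p under 0.05), among 3.86% of all tested genes called either way and 1.81% called higher. The list was chosen on this contrast, so nothing is read from that count. The log2 fold changes of Rb1/Trp53/Crebbp over Rb1/Trp53 were 3.54 ± 0.91 for Slc1a2, 2.67 ± 0.53 for Gpm6b and 4.54 ± 1.001 for Vsnl1 (± SE). The other 5 tested were 1.89 ± 0.91 for Slc1a3, 2.08 ± 1.45 for Gfap, 0.86 ± 0.85 for Aqp4, 0.06 ± 1.08 for S100b and 0.72 ± 0.31 for Aldoc. Mlc1 did not pass the filter. The call of Slc1a2 was lost in 12 of the 17 fits that left out 1 library, 9 of them without an Rb1/Trp53 library and the others without Rb1/Trp53/Crebbp T2, T4 or T8. Gpm6b was called in all 17, and Vsnl1 in all but that without Rb1/Trp53 T7, where it did not pass the filter. With limma-voom in place of edgeR, 0 of the 8 were called.

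Without Rb1/Trp53/Crebbp T8, 4 of the 8 log2 fold changes had the opposite sign. They were -0.66 ± 0.49 for Slc1a3, -1.95 ± 1.20 for Gfap, -1.27 ± 0.54 for Aqp4 and -1.99 ± 0.97 for S100b, and none of the 4 was called. Slc1a2 was 1.28 ± 0.44 and no longer called. Gpm6b, at 2.15 ± 0.45, and Vsnl1, at 2.09 ± 0.46, were still called higher, among 3.86% of tested genes called either way and 2.18% called higher. Aldoc was 0.53 ± 0.29. With the set as a further term and T8 left out, Gpm6b was lower, at 1.58 ± 0.41, and so was Vsnl1, at 1.84 ± 0.45. Gfap was -0.25 ± 0.94 when both T8 and Rb1/Trp53 T7 were left out.

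Within the Pomc-high set 0 of 7 tested genes were called, against 8.42% of all tested genes. An unadjusted p under 0.05 was found for 5 of the 7 and for 3561 of all 14010 tested genes (edgeR). Nothing is read from the 5, as the list was chosen with the genotype difference known. limma-voom also called 0. DESeq2 called 0 but gave an adjusted p for Aldoc alone, so the other 6 could not be called by it. S100b and Vsnl1 did not pass the filter. The fold changes were 4.41 ± 1.37 for Slc1a2, 2.68 ± 0.88 for Gpm6b, 2.58 ± 1.001 for Slc1a3, 2.61 ± 1.58 for Gfap, 2.12 ± 1.10 for Aqp4, 3.06 ± 1.27 for Mlc1 and 0.88 ± 0.39 for Aldoc. Each is a mean over 4 Rb1/Trp53/Crebbp libraries, of which T8 alone was far above the rest for all but Aldoc. Aldoc had 458 CPM in T8 and 181 CPM in T5. Without T8 the same 7 were 0.21 ± 0.38, 0.54 ± 0.32, -0.11 ± 0.36, -1.42 ± 1.49, -0.82 ± 0.73, -0.62 ± 0.69 and 0.25 ± 0.24 in that order. Again 0 were called, against 8.6% of tested genes. An unadjusted p under 0.05 was found for 0 of the 7 and for 3464 of all 14052 tested genes. The genotypes overlapped for all 9 genes in this set, with T8 and without it, while 11.3% of tested genes did not overlap with T8 and 15.1% without it.

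T8 is not in the Calca-high set, and there the genes divided. Gpm6b, at 2.65 ± 0.44, and Vsnl1, at 2.76 ± 0.58, were called higher in Rb1/Trp53/Crebbp, and S100b, at -2.91 ± 0.50, and Aqp4, at -1.76 ± 0.59, were called lower. In all 36.2% of tested genes were called in this set, 19.1% higher and 17.1% lower, so nothing is read from 4 of 7. Slc1a2, at 1.72 ± 0.65, Slc1a3, at -1.08 ± 0.47, and Aldoc, at 0.42 ± 0.35, were not called, and Gfap and Mlc1 did not pass the filter. The call of Aqp4 was lost in 6 of the 7 fits that left out 1 library, each but that without Rb1/Trp53 T3, while Gpm6b, Vsnl1 and S100b were called in all 7. Genotypes did not overlap upward for Slc1a2, Gpm6b and Vsnl1, as for 34.4% of tested genes, and downward for S100b, as for 11.4%. Mlc1, not tested, also did not overlap downward, at 2 reads or fewer.

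Some astrocyte-defining genes were at or near 0 in these Calca-high libraries, while others were not. Gjb6 had 0 CPM in all 4 Rb1/Trp53/Crebbp libraries and at most 0.0491 CPM in Rb1/Trp53 libraries. Hepacam had at most 0.12 CPM and at most 0.321 CPM, in the same order. Mlc1 was at 2 reads or fewer, Gfap reached 0.827 CPM, and Mobp was at 0.12 CPM or below in all 7. Of the 30 other astrocyte genes, however, 27 passed the filter, with 2 called higher and 5 lower, against 36.2% of tested genes called. They summed to 1734 to 2361 CPM in Rb1/Trp53/Crebbp libraries and 1637 to 1846 CPM in Rb1/Trp53 libraries.

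Some neuronal genes differed beside Gpm6b and Vsnl1 in the Calca-high set. The list summed to 134 to 180 CPM in Rb1/Trp53/Crebbp libraries and 74.3 to 97.8 CPM in Rb1/Trp53 libraries, without overlap. Grin1 alone, given below, made up much of each sum. Of single tested genes, 34.4% did not overlap upward in this set, so nothing is read from the sum. Of 9 tested, 4 were called higher and 1 lower, against 19.1% and 17.1% of tested genes. Gad1, for the enzyme that makes GABA, had 0.452 to 5.76 CPM in Rb1/Trp53/Crebbp libraries against 0.0355 to 0.196 CPM in Rb1/Trp53 ones. Grin1, an NMDA receptor subunit gene, had 79.2 to 126 CPM against 41.6 to 65.2 CPM, and Nefh, a neurofilament gene, 19.2 to 29.6 CPM against 9.997 to 14.3 CPM. The other 2 called were Nefm, higher at a log2 fold change of 2.50, and Slc17a7, lower at -1.42. Of the 7 fits that left out 1 library, Gad1 was called in only 4 and Nefm in only 3. Without Rb1/Trp53 T3 the calls of Grin1 and Nefm were lost, and without Rb1/Trp53 T1 that of Slc17a7. In their other fits without a call, Gad1 and Nefm did not pass the low-count filter. The part of these genes in the values of Gpm6b and Vsnl1 was not tested.

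The difference between sets was itself fitted as an interaction. Of the 9 genes, 1 was called, S100b at -6.32 ± 1.72, which means a lower genotype difference in the Calca-high set, among 22.9% of tested genes called either way and 10% called lower. Without T8 it was -2.57 ± 1.20 and not called. Gpm6b was then called at 2.07 ± 0.57, among 23.5% of tested genes called either way and 11.6% called higher, against -0.02 ± 1.08 with T8 in the fit. Which of the 9 were called thus changed with 1 library. Leaving out Rb1/Trp53/Crebbp T6 or T7 instead added Aqp4 and Slc1a3, and T5 added Slc1a3.

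**Figure D3:**
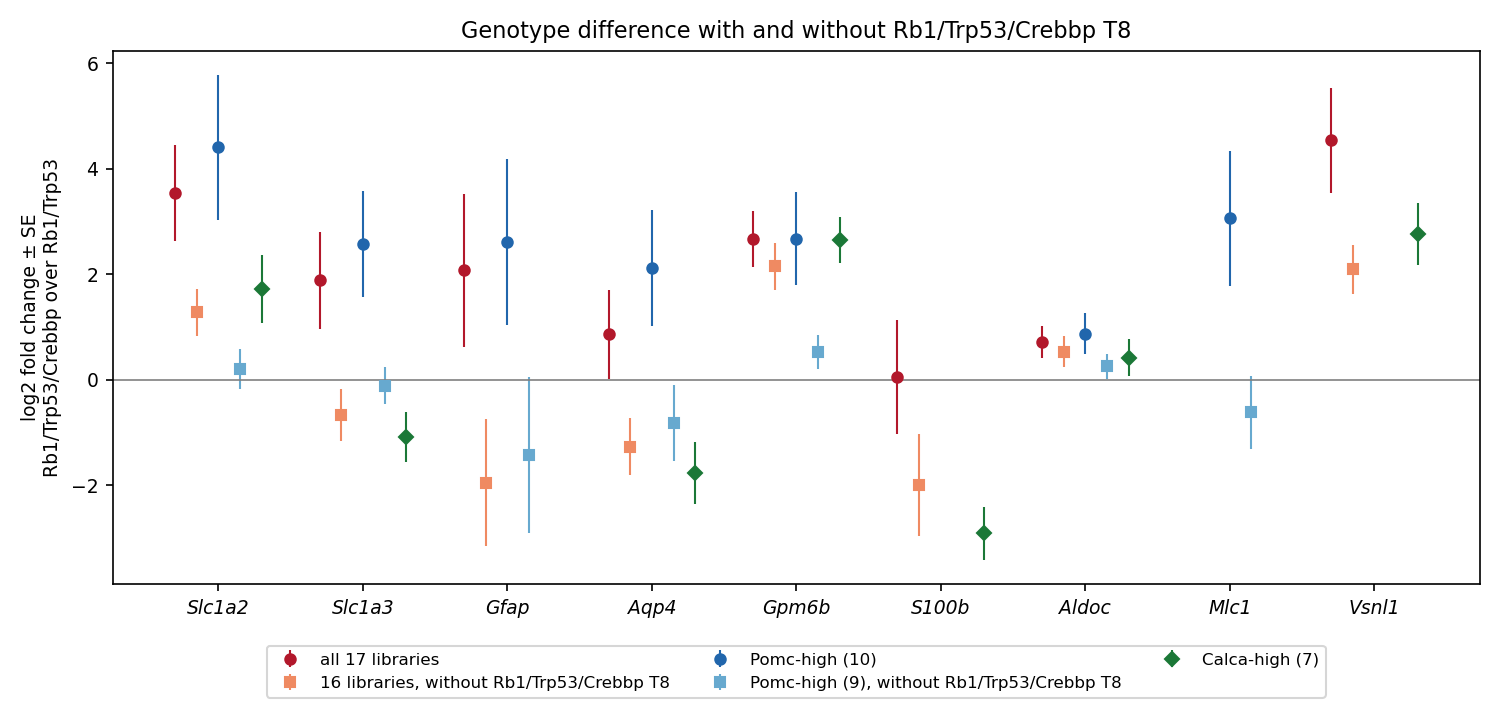
Log2 fold change of Rb1/Trp53/Crebbp over Rb1/Trp53 for each gene with its standard error as the bar, over all libraries, within the Pomc-high set and within the Calca-high set, and with and without Rb1/Trp53/Crebbp T8 (missing points did not pass the low-count filter). Without T8 the Pomc-high values lie between -1.42 and 0.54, while Gpm6b and Vsnl1 stay above 2 over 16 libraries.

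Strong co-variation of the 9 genes across the Pomc-high libraries was present with T8 and not without it. Over their 36 pairs the median Pearson r of log2(CPM + 1) was 0.92, from 0.70 to 0.99, and 21 pairs were above 0.9 (n = 10 libraries). The rank correlation, which 1 extreme point moves less, had a median of 0.47. Without T8 the median r was 0.38, from -0.28 to 0.83, with 0 pairs above 0.9 and 4 below 0 (n = 9). The highest pair was then Gfap with S100b at 0.83, which shares the high values of Rb1/Trp53 T7, and its rank correlation was 0.27. Without both libraries the median was 0.26 (n = 8). All pairs share libraries and depth, and low genes such as Vsnl1 and S100b had few reads outside T8. In the Calca-high set no pooled correlation is given, as the genotypes separate there and hold 4 and 3 libraries.

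**Figure D4:**
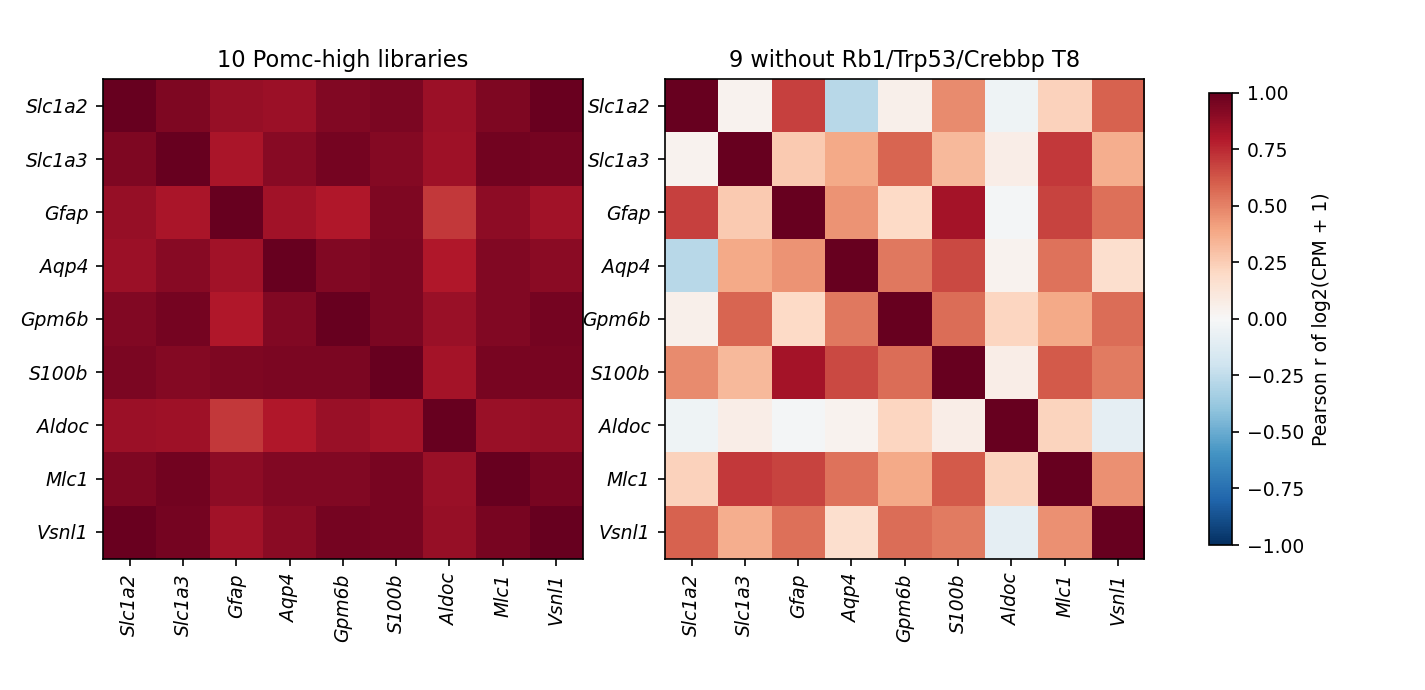
Pearson r of log2(CPM + 1) for each pair of the 9 genes over the 10 Pomc-high libraries (left) and over 9 without Rb1/Trp53/Crebbp T8 (right), on a colour scale from -1 to 1. The median over the 36 pairs is 0.92 on the left and 0.38 on the right.

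The genes with the most similar pattern to the 3 that were called over all libraries also changed when T8 was left out. Likeness was Pearson r over 17 libraries after removing the mean of each set, among 14338 genes. Nearest to Slc1a2 were Ntm, Ngb, Itm2a, Ntng1 and Gabrb2 (r = 0.92 to 0.95), and nearest to Vsnl1 were Ntm, B3galt5, Ngb, Nrxn3 and Cbln1 (0.94 to 0.97). Gpm6b was nearest to Adcyap1r1, the receptor of the peptide PACAP, and to Ncdn, Ppp2r2b, Cys1 and Cplx1 (0.93 to 0.95). Without T8, 0 of the 5 remained for each of the 3 genes. The nearest were then Gpatch4, Gpt2, Rasgef1b, Gnas and Zfp120 for Slc1a2 (0.81 to 0.88), Trmt6, Sox7, Nrg2, Tmem136 and Rfc5 for Gpm6b (0.91 to 0.92), and Rarres1, Nrip2, Ada, Mpped2 and Gulo for Vsnl1 (0.90 to 0.95).

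Promoters of Slc1a2, Gpm6b and Vsnl1 are shown because these 3 genes had higher values in every Rb1/Trp53/Crebbp library of the Calca-high set than in the others. Each sequence is the 250 bases before a RefSeq start on GRCm38.p6, read 5′ to 3′. For Slc1a2 that start lies inside the gene, whose RefSeq span begins at chr2:102658239, and the bases before that outer start were not in the promoter table. Capitals mark the motifs searched on either strand, TGACGTCA (the cAMP response element), its part TGACG, and CCAAT.
Slc1a2, chr2:102706188-102706437, plus strand: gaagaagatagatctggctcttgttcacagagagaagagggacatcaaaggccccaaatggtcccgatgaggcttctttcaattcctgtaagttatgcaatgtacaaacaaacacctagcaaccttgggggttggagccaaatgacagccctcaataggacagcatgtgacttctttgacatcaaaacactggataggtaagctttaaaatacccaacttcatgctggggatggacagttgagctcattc
Gpm6b, chrX:166238693-166238942, plus strand: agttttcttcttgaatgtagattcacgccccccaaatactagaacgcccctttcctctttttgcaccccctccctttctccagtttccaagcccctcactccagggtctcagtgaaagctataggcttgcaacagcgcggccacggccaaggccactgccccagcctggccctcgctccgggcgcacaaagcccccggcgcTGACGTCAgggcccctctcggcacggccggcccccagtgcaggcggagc
Vsnl1, chr12:11436579-11436828, minus strand: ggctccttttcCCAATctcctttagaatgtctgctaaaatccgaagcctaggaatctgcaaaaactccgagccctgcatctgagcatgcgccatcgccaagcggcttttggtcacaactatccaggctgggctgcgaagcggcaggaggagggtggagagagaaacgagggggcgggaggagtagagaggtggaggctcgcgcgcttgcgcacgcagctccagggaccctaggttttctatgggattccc
Gpm6b held TGACGTCA, starting 49 bases before the start, and the Vsnl1 window shown held CCAAT at 239 bases before it. A further Vsnl1 window, chr12:11435652-11435901, not shown, held CCAAT at 214 bases before its start. None of the motifs occurred in the Slc1a2 window, which does not describe the outer start of that gene. Of the 8 genes with a promoter in the table, TGACGTCA was in 1, TGACG in 2 and CCAAT in 4. Among all 32851 promoters of that length, 1.55%, 17.8% and 33.8% held these. These shares are per promoter, while a gene was counted if any of its promoters held the motif. A match is a description of the letters and not of a bound site.

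The other lists were also drawn up with earlier results of these data known, and the genes named from here on were named because they were called. Their calls and adjusted p-values are thus a description, not support. Among related genes outside the list, the astrocyte and neuronal proteoglycan gene Cspg5 was called higher over all 17 libraries and in both sets. It had 45.5 to 104 CPM in Pomc-high Rb1/Trp53/Crebbp libraries against 18.2 to 23.5 CPM in Rb1/Trp53 ones, and 21.5 to 45.8 CPM against 12.4 to 15.2 CPM in the Calca-high set. Its log2 fold change was 1.21 ± 0.28 over all libraries (edgeR adjusted p = 0.0233) and 0.996 ± 0.25 without T8 (adjusted p = 0.0399). In the Pomc-high set it was 1.53 ± 0.16 (edgeR adjusted p = 0.000241), and 1.31 ± 0.11 without T8 (adjusted p = 6.79e-05). Cspg5, Scn7a and Slc1a5 were each called over all libraries in 17 of the 17 fits that left out 1 library, but in the Calca-high set Cspg5 was called in 4 of 7, losing the call without any 1 of the 3 Rb1/Trp53 libraries. Cspg5 was the only 1 of 26 tested astrocyte genes called over all 17 libraries, where 3.86% of all tested genes were, and the list's median was 0.45 against -0.02 for all tested genes. Without T8 the median of the 26 was -0.32, and Kcnj10, at -1.29 ± 0.28 (edgeR adjusted p = 0.0229), and Ednrb, the endothelin receptor of glia, at -0.91 ± 0.22 (adjusted p = 0.0322), were called lower. The sign of the list's median over all libraries thus turned with 1 library. Within the sets other astrocyte genes went against Cspg5. In the Pomc-high set without T8, of 24 tested, Cspg5 and Atp1b2 were called higher, and 4, Gja1, Clu, Ppap2b and Bcan, lower, against 8.6% of tested genes. In the Calca-high set Cspg5 and Nfib were called higher, and Kcnj10, Slc7a10, Sparcl1, Ttyh1 and Cldn10 lower, against 36.2% of tested genes.

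Scn7a, a glial sodium channel gene, was the 1 of 12 tested pituicyte genes called over all libraries, against the same 3.86%. It had 7.21 to 19.3 CPM in Pomc-high Rb1/Trp53/Crebbp libraries against 1.31 to 9.90 CPM in Rb1/Trp53 ones, and 15.6 to 31.7 CPM against 1.23 to 6.47 CPM in the Calca-high set. Its fold change was 1.89 ± 0.42 (edgeR adjusted p = 0.0198), and 1.87 ± 0.44 without T8 (adjusted p = 0.0288). It was not called in the Pomc-high set. In the Calca-high set it was called at 2.27 ± 0.53, and in 7 of 7 fits that left out 1 library, where 36.2% of tested genes were called. Lhx2 was also called higher there, at 2.60 ± 0.52, and Hes1 lower, at -1.64 ± 0.27. In the Pomc-high set Hes1 was called lower, at -0.82 ± 0.22, against 8.42% of tested genes. Without T8 the 1 called there was Vim, lower at -1.16 ± 0.31, against 8.6%. The list's median over all libraries was -0.30, and -0.54 without T8.

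Of 16 tested relatives of the 9 genes, 0 rose and 2 fell over all 17 libraries, with a median of -0.18, against 3.86% of all tested genes called. Without T8 the median was -0.25, and 0 rose and 1 fell, against 3.86% again. Slc1a5, a neutral amino acid transporter of the same family as Slc1a2, had 11.7 to 29.4 CPM in Rb1/Trp53/Crebbp libraries against 19.3 to 59.3 CPM in Rb1/Trp53 ones, a difference of -1.15 ± 0.23 (edgeR adjusted p = 0.0124). Without T8 it was -1.14 ± 0.25 (adjusted p = 0.0217). Hpcal1, a calcium sensor related to Vsnl1, was -0.71 ± 0.18 (adjusted p = 0.0396) and was called in only 6 of the 17 fits that left out 1 library, not in that without T8. Within the sets, however, it was called lower in 10 of 10 such Pomc-high fits and in 7 of 7 Calca-high ones. Other relatives went the other way. In the Pomc-high set 1 of 16 tested was called higher and 3 lower, against 8.42% of all tested genes. In the Calca-high set 2 of 14 were called higher and 4 lower, against 36.2%. Hpca was higher in both, at 2.44 ± 0.59 (1.23 ± 0.34 without T8) and 0.87 ± 0.23, and Slc1a4 in the Calca-high set, at 1.15 ± 0.23.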

How the data were processed

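RNA was measured by sequencing of 17 mouse tumours labelled pituitary, 8 Rb1/Trp53/Crebbp and 9 Rb1/Trp53, after poly-A selection per the labels' protocols. Raw counts were deposited by the authors as a table for each tumour. Each lists 23284 symbols and ends in 5 summary rows that name no gene, which were left out. Genes held 64.5% to 78.3% of each table. Per the submitters' processing notes, HTSeq 0.6.1, TopHat2 2.0.12 and bcl2fastq 1.8.2 were used, with the build mm9. Annotation and strand setting: not given in the sources used here. Overlapping and antisense genes therefore cannot be told apart.

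The 9 genes, the 12 lists of other cell types and relatives, and the sets of libraries were chosen with earlier results of these data known. CPM are counts per 1000000 gene counts, without further scaling. Counts were fitted with edgeR 4.0.16 in R 4.3.3 (filterByExpr by genotype, TMM, robust quasi-likelihood F test), and p-values were adjusted by Benjamini-Hochberg over all tested genes, with 0.05 as the threshold. Fits covered all 17 libraries, each set, and the interaction. Correlations used log2(CPM + 1). Named beside the 9 genes are the 5 most correlated genes of Slc1a2, Gpm6b and Vsnl1, with and without Rb1/Trp53/Crebbp T8, list genes called over all 17 libraries, and defining markers. Other markers, Kcnj10 and Ednrb without T8 among them, were named after their values were seen. Of 64 pairs of libraries within a genotype, 0 were identical. The fits were tested on simulated data. Alternatives were DESeq2 size factors, upper-quartile scaling, 2 other low-count filters, DESeq2 1.42.0, limma-voom 3.58.1, the tumour number as a block, a set term and each library left out. Leaving out both T8 and Rb1/Trp53 T7, and the set term without T8, were chosen after seeing the data. Promoters and gene overlaps are from RefSeq (GRCm38.p6), matched by symbol for 8 and 9 of the 9 genes. Figures used matplotlib 3.10.9.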

Additional observations from a re-analysis of the deposited data

Results flagged for a closer look

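In 12 of 27 groups of 4 to 6 libraries, 1 library lay far from the rest by Dixon's test. Chance gives this in about 1 in 20 groups of normally distributed values, which CPM of low genes need not be. The genes were chosen with the genotype difference known and the groups share libraries, so nothing is read from the 12. Groups of 3 were not tested. Of the 12, 8 were Rb1/Trp53/Crebbp T8 within the 4 Pomc-high Rb1/Trp53/Crebbp libraries, at 245 CPM for Slc1a2, 145 for Slc1a3, 175 for Gfap, 23.0 for Aqp4, 113 for Gpm6b, 41.6 for S100b, 60.2 for Mlc1 and 80.2 for Vsnl1. Aldoc was not among them. Beside these values stand those of oligodendrocyte and neuronal genes in the same library, and their part in the result was not tested.

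Rb1/Trp53 T7 stood apart in its group of 6 for Gfap, at 29.5 CPM, and for S100b, at 3.78 CPM. In the Calca-high Rb1/Trp53/Crebbp group T4 stood apart for S100b, at 3.87 CPM, and for Mlc1, at 0.0646 CPM. That Mlc1 value is 1 read beside 0 reads in T1, T2 and T3, so nothing is read from its flag. The genotype difference of S100b was lower in the Calca-high than in the Pomc-high set by the interaction fit, at a log2 difference of -6.32, and this call was lost without T8.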

How the results depend on the processing

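Counts of genes called over all 17 libraries were 554 by edgeR, 1397 by DESeq2, 2575 with a set term, 2674 with a set term and without T8, and 270 without T8 and Rb1/Trp53 T7. Leaving out 1 library gave 285 to 1010, the highest without Rb1/Trp53/Crebbp T5 and the lowest without T4. It gave 292 to 332 without Rb1/Trp53/Crebbp T1, T2 or T3 or Rb1/Trp53 T7 or T8. Among the 9 genes 3 were called, 0 by limma-voom, 1 without both T8 and Rb1/Trp53 T7, and 1 to 3 leaving out 1 library (1 without Rb1/Trp53 T7). In the Pomc-high set 1179 genes were called, 1917 by DESeq2 and 752 to 1214 leaving out 1 library (752 without Rb1/Trp53/Crebbp T7); of the 9, 0 to 1 were called (1 without Rb1/Trp53/Crebbp T6). In the Calca-high set 5355 were called, 3588 to 5312 leaving out 1 library, and of the 9 it was 4, and 3 to 5. The interaction gave 3531, and 2487 to 3849 leaving out 1 library, with 1 of the 9, 2 by DESeq2 (of only 4 to which it gave an adjusted p) and 1 to 3 leaving out 1 library (2 without Rb1/Trp53/Crebbp T5, 3 without T6 or T7). The median correlation was 0.3777 without T8 and 0.8541 with a pseudocount of 0.1. DESeq2 replaces outlying counts, here of 5 of the 8 genes tested over all 17 libraries, which gave 1.197 for Slc1a2, -0.62 for Slc1a3, -0.20 for Gfap, -1.19 for Aqp4 and 2.02 for Vsnl1. The cause of the other changes was not tested.

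Tumour numbers 1 to 8 are shared by both genotypes but do not pair the samples. Same-numbered libraries correlated at 0.49 to 0.77 where both fell in 1 set and at -0.63 for number 2, which fell in different sets, and at -0.17 to 0.21 within sets. With the number as a block, 430 genes were called over all 17 libraries and 0 of the 9, 354 in the Pomc-high set and 0 of the 9, and 2700 in the Calca-high set and 2 of the 9. Depth limits the low genes: 3 counts are 0.107 to 0.36 CPM, and values of Gfap, Mlc1, Vsnl1 and S100b near these levels have no order.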
